A study of Mus musculus with 2 samples.

Results

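The transcription factor p53 and 31 genes that control it or are among its known transcriptional targets were examined in bone that lacks telomerase RNA. The genes were chosen with earlier results of these data known. All probes with their symbols in the platform's annotation were taken, without regard to the values of the probes. They covered 31 of the 32 genes with 76 of 34885 named probes. Trp53 itself, which encodes p53, had no named probe and was not analysed here. Female C57BL/6 mice aged 22 weeks were used, and whole tibia of TERC+/+ and TERC-/- animals was compared, the latter being the G3 mTERC-/- mice of the series title. Each genotype was represented by 1 Illumina bead array, hybridised with RNA pooled from 3 untreated mice.

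p53 is a transcription factor that is held at low levels by the ubiquitin ligase Mdm2 and stabilised when DNA is damaged. A telomere that has become too short is sensed as damaged DNA, and telomerase-deficient mice are a standard model of that signal. Active p53 switches on genes that stop the cell cycle, remove damaged cells or repair DNA, and it also switches on its own inhibitors. Many of its targets are read by other stress pathways as well, and p53 is regulated largely at the level of the protein, which an RNA array does not measure.

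With 1 array per genotype there was no replicate, so every difference below describes these 2 pools and carries no test, and the precision of each value is limited by having so few arrays. Differences are TERC-/- minus TERC+/+ on the log2 scale after background correction and quantile normalization, and a gene is counted as higher or lower at 2-fold, which is a rule of size. Detection required a detection p under 0.01. Raw intensities had a median of 127 in TERC+/+ and 138 in TERC-/-, and 16640 and 15363 probes were detected. The single Terc probe was not detected on either array (raw intensity 112 on both), so the arrays give no check of the genotype.

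The p53 genes differed in both directions, and few passed 2-fold. Of the 31 genes with a probe, 26 were detected on at least 1 array. Plk3 and Gadd45b were 2-fold or more higher in TERC-/-, which is 2 of 26 (7.69%), and 6.86% of all 9953 detected genes were that much higher. Both calls ended without background correction and in the deposited processed values, where 0 members were that much higher. The shares of all detected genes there were 3.58% and 3.64%. Median scaling gave 6 members, and 7.91% of all detected genes were that much higher under it. Phlda3, Sesn1 and Pml were 2-fold or more lower, which is 3 of 26 (11.5%), against 8.81% of all detected genes. Both shares were near the background. The median difference over the 26 genes was 0.23, against 0.01 over all detected genes, and the middle 50% of the p53 genes ran from -0.42 to 0.80. Before the rule of size, 17 of the 26 genes had a value above 0 (65.4%), against 50.8% of all detected genes.

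**Figure D1:**
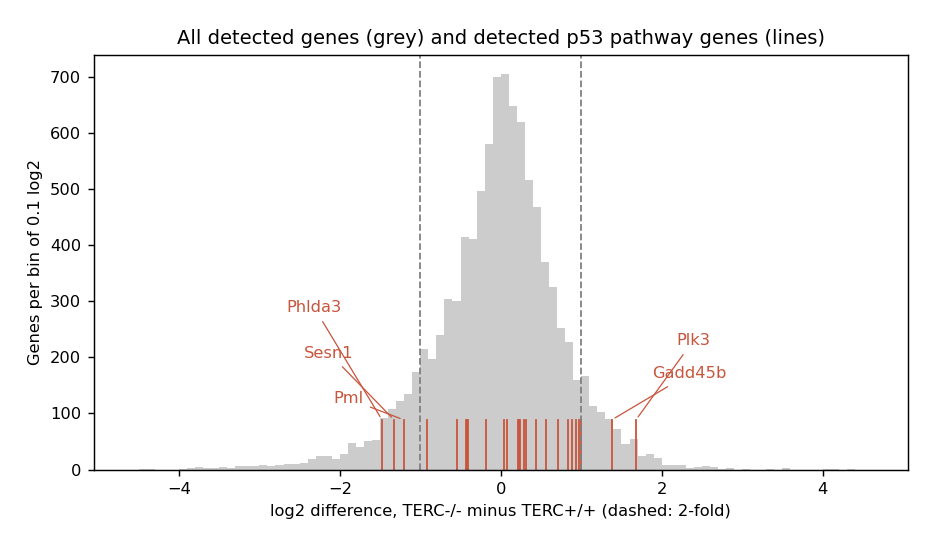
Histogram of the log2 difference (TERC-/- minus TERC+/+, x axis) of 9953 detected genes in grey, as genes per bin (y axis), with the 26 detected p53 pathway genes as red lines and 2-fold as dashed lines. The p53 genes are spread across the distribution, with Phlda3 at -1.48 and Plk3 at 1.68 as their extremes.

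Promoters are shown for the 5 members past 2-fold and for Cdkn1a, whose response to p53 is the best known. Each is the 250 bases upstream of an annotated start, from RefSeq on GRCm38.p6, printed 5′ to 3′. Capitals mark any match to the 10-base p53 consensus, of which p53 binds a pair. For Sesn1 and Cdkn1a, which have 2 annotated starts each, the window shown is the one with a match. The window of their other start held no match. The Plk3 window is chr4:117133964-117134213, minus strand, the Gadd45b window chr10:80929841-80930090, plus strand, the Phlda3 window chr1:135765835-135766084, plus strand, the Pml window chr9:58249787-58250036, minus strand, the Sesn1 window (the more downstream of its 2 annotated starts) chr10:41887189-41887438, plus strand, and the Cdkn1a window (the more upstream of its 2 starts) chr17:29090729-29090978, plus strand.
Plk3: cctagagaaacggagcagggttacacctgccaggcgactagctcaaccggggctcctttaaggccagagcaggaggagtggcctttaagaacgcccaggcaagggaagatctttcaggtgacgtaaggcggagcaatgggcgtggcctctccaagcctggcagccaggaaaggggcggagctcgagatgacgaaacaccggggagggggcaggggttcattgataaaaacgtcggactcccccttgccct
Gadd45b: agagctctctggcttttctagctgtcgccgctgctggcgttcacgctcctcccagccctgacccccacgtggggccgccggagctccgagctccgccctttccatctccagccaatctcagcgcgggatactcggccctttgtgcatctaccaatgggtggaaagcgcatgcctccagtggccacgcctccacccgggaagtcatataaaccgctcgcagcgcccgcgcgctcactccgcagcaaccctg
Phlda3: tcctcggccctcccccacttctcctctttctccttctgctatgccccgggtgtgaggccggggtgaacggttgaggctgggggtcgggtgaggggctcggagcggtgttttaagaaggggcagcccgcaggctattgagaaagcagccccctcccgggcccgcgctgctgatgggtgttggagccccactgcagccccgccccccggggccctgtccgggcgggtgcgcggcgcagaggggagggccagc
Pml: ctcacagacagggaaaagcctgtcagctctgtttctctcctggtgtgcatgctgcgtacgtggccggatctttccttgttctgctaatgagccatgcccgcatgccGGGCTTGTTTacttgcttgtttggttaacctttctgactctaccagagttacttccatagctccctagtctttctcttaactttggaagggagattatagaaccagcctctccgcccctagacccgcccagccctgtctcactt
Sesn1: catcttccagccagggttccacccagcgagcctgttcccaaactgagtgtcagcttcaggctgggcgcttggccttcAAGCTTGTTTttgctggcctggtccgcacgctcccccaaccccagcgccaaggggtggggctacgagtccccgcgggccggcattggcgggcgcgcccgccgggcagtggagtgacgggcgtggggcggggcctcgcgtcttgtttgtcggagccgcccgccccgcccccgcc
Cdkn1a: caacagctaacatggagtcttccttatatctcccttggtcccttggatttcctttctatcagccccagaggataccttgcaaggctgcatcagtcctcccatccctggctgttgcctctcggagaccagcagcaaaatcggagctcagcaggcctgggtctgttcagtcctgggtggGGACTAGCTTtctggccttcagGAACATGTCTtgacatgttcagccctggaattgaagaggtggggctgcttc

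Promoter windows were listed for 26 of the 32 genes, in 31 windows. A match to the p53 consensus decamer, searched on both strands, stood in 11 of these windows (35.5%), against 7.13% of all 32851 promoter windows of the same length. Known p53 targets were the basis of the list, so this share is a description of how the genes were chosen. The GC content of the windows had a median of 62.8%, against 52.4% for all windows. The genes with a match did not share a direction. Of 9 detected genes with a match, 4 had values above 0 and 5 below, and they ran from -1.33 for Sesn1 to 0.83 for Mdm2. Of 12 detected genes with a listed window and no match, 9 had values above 0 and 3 below, from -1.48 for Phlda3 to 1.68 for Plk3. The absence of a match says only that the letters are not in this window, since the response elements of many targets lie elsewhere in the gene. A GC box, GGGCGG on either strand, stood in 22 of the 31 windows (71.0%), against 32.7% of all windows. The cyclic AMP response element TGACGTCA stood in 3 windows (9.68%, against 1.55% of all), those of Btg2, Plk2 and Ppm1d. The sequence CCAAT stood in 16 windows (51.6%, against 33.8%) and TGANTCA, where N is any base, in 2 (6.45%, against 6.75%).

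Among the regulators of p53, the inhibitors did not move together. Mdm2, the ubiquitin ligase that degrades p53 and is itself a p53 target, had raw intensities of 1778 in TERC+/+ and 3400.0 in TERC-/-, with normalized log2 values of 10.78 and 11.61, a difference of 0.83 or 1.78-fold higher. A further detected Mdm2 probe gave 0.54, so both detected probes were higher in TERC-/- and neither reached 2-fold. Mdm4, a relative of Mdm2 that binds p53 and blocks its activity, had raw intensities of 159 and 191 and a difference of 0.56. Only 1 of the 5 Mdm4 probes was detected, and it lay close to background on both arrays.

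Ppm1d, the phosphatase Wip1 that is induced by p53 and switches the damage response off, was lower. Its detected probe had raw intensities of 1307 in TERC+/+ and 771 in TERC-/-, a difference of -0.92. The other 3 Ppm1d probes were at background. Pml, the protein that builds the nuclear bodies in which p53 is modified, was 2.31-fold lower, with raw intensities of 1972 and 974 and log2 values of 10.93 and 9.72. A further detected Pml probe was lower too, at -0.93, and the mean of all 5 probes, 3 of them at background, was -0.61. Pml is also induced by interferon. Mdm2 and Ppm1d are both p53 targets in a feedback loop, and their differences had opposite signs.

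**Figure D2:**
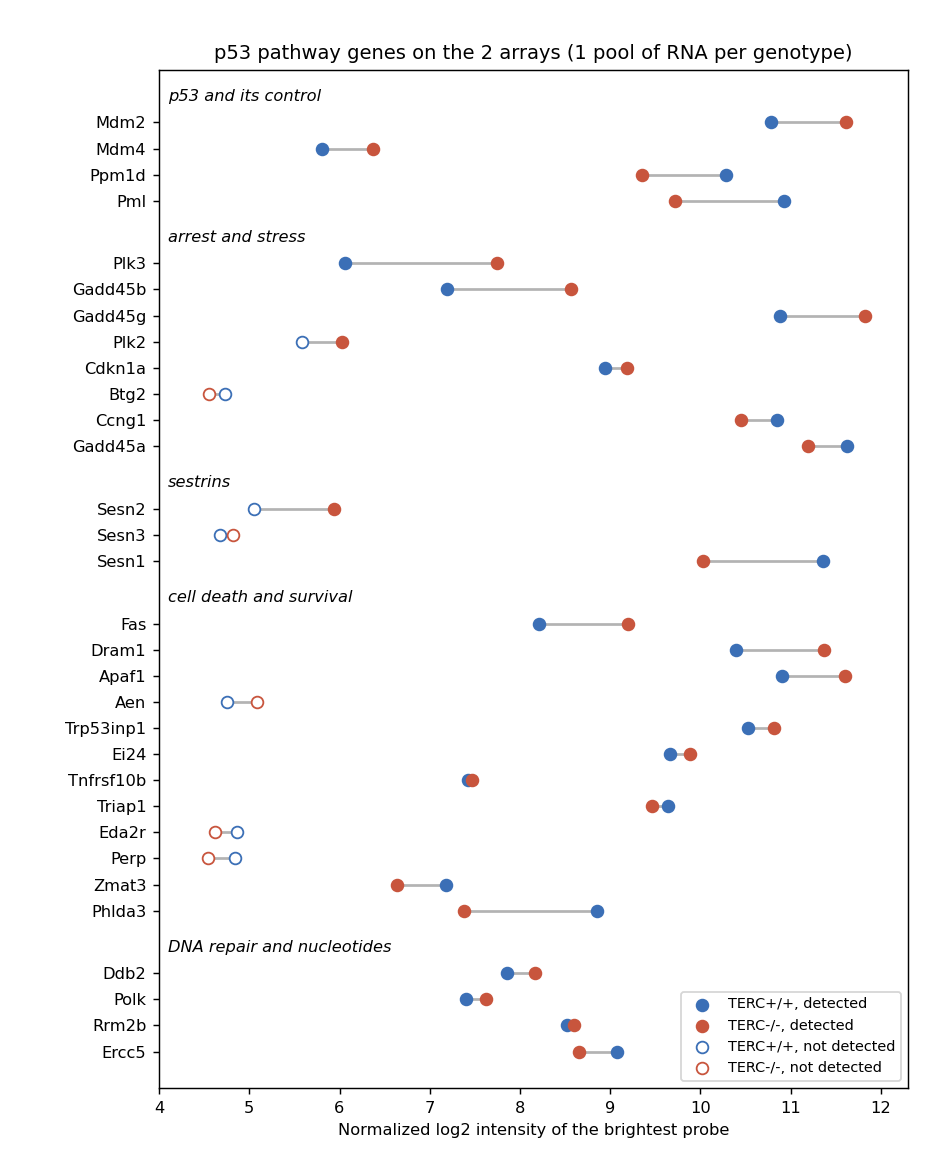
Normalized log2 intensity (x axis) of the brightest probe of the 31 genes with a probe (rows, grouped by role) on the TERC+/+ array (blue) and the TERC-/- array (red), filled where the probe was detected. Plk3, Gadd45b, Sesn1, Phlda3 and Pml have the widest gaps among detected genes, and Btg2, Sesn3, Aen, Eda2r and Perp lie at background on both arrays.

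Among genes of cell-cycle arrest, Cdkn1a showed a small difference. Cdkn1a encodes p21, the inhibitor of cyclin-dependent kinases through which p53 stops the cycle. Its brightest probe had raw intensities of 592 in TERC+/+ and 696 in TERC-/-, with log2 values of 8.94 and 9.19, a difference of 0.24 or 1.18-fold. Its 2 other detected probes gave 0.55 and 0.69. All 3 probes were higher in TERC-/-, and none reached 2-fold. The difference of the brightest probe exceeded that of 65.5% of detected genes. Ccng1, the cyclin G1 gene and one of the most consistently p53-responsive mouse genes, was at -0.40 on its brightest probe and at 0.22 and 0.26 on the other 2, so its direction depended on the probe.

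The Gadd45 genes, which encode small stress proteins that bind kinases and cell-cycle regulators, differed from each other. Gadd45a, the family member most closely tied to p53, had raw intensities of 3090.4 in TERC+/+ and 2540.3 in TERC-/-, a difference of -0.44. Its second probe was at -0.59, and both probes were lower in TERC-/-. Gadd45b, which is induced by inflammatory cytokines as well as by stress, had raw intensities of 251 and 491 and log2 values of 7.19 and 8.57, and was 2.61-fold higher. Its second probe gave only 0.53, and the gap of 0.85 between these probes was the widest among the members with 2 or more probes detected on both arrays. Gadd45b was at 0.95 without background correction, 0.97 in the deposited processed values and 0.96 as the mean of its probes, all short of 2-fold. Gadd45g had raw intensities of 1920.4 and 3961 and a difference of 0.94, and its second, dimmer probe gave 1.45. Gadd45b and Gadd45g were thus higher on both of their probes, and Gadd45a was lower on both.

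Plk3, a polo-like kinase of the stress response, showed the largest positive difference of the p53 genes. Its single probe had raw intensities of 170.3 in TERC+/+ and 322 in TERC-/-, with log2 values of 6.06 and 7.74, or 3.21-fold higher. This exceeded the difference of 98.6% of detected genes. The TERC+/+ value lay close to background, with a detection p of 0.0021, and with the background left in the difference was 0.89, short of 2-fold. Its relative Plk2, which is induced by p53 and by serum, had raw intensities of 150.0 and 174. Its detection p was 0.0107 in TERC+/+, just short of the rule, and 0.0043 in TERC-/-. It was therefore counted as detected in TERC-/- only, with a bound of 1.35-fold higher on the background-corrected scale. That bound depends on the correction, since the ratio of the raw intensities was 1.16. Btg2, an anti-proliferative p53 target, was at background on both arrays.

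Plk3 and Gadd45b are also immediate early genes of cell stimulation, and a list of that class was set beside them. Of 16 detected immediate early genes, 4 were 2-fold or more higher (25%, against 6.86% of all detected genes) and none was lower by that much. The median of the list was 0.65, with 11 genes above 0 and 5 below. Those below 0, named after their values were seen, were Jun, Jund, Egr2, Egr3 and Dusp2. Fos, a subunit of the transcription factor AP-1, had raw intensities of 374 and 1961 and was 6.56-fold higher. Junb, another AP-1 subunit, was at 1.99, Ier3 at 1.70 and Dusp1, a phosphatase that turns off stress kinases, at 1.19. Their part in the Plk3 and Gadd45b values was not tested.

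The sestrins restrain the growth kinase mTORC1 and protect against oxidative stress. Sesn1, the sestrin most directly induced by p53, had raw intensities of 2602 in TERC+/+ and 1187 in TERC-/-, with log2 values of 11.36 and 10.03, and was 2.51-fold lower. Its other 2 probes, 1 of them detected on the TERC+/+ array only, gave -1.55 and -1.54. The 3 Sesn1 probes therefore had the same direction. The 2 probes detected on both arrays were at -1.33 and -1.55. The probe at -1.54 had raw intensities of 204 and 143, and its size rests on a TERC-/- value at background. Sesn2, induced by p53 and by nutrient and endoplasmic reticulum stress, was detected in TERC-/- only, with raw intensities of 131 and 171, and was at least 1.28-fold higher on the background-corrected scale, or 0.28 on the log2 scale in the deposited processed values. Only 1 of the 3 Sesn2 probes was detected, with a detection p of 0.0085 in TERC-/-. The others, at background, gave -0.01 and 0.18. Sesn3 was at background.

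Among genes of cell death, Fas, Apaf1 and Dram1 had values above 0 and short of 2-fold, and Phlda3 was lower. Fas, the death receptor, had raw intensities of 399 in TERC+/+ and 703 in TERC-/-, and was 1.99-fold higher, just short of the rule. Its 2 other detected probes gave 1.24 and 0.90. Apaf1, the scaffold of the apoptosome that activates caspases, had raw intensities of 1935 and 3388 and a difference of 0.71, and its 2 other probes gave 0.84 and 1.13. Dram1, a lysosomal membrane protein through which p53 promotes autophagy, had raw intensities of 1406 and 2884 on its single probe and a difference of 0.97. All 7 detected probes of these 3 genes were higher in TERC-/-.

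Phlda3, a p53 target that binds membrane phosphoinositides and so restrains the survival kinase Akt, was the lowest of the p53 genes. Its raw intensities were 565 in TERC+/+ and 274 in TERC-/-, with log2 values of 8.85 and 7.38, or 2.78-fold lower. Its second probe was at -1.23. Only 4.28% of detected genes had a difference as low or lower. Zmat3, an RNA-binding protein that is a conserved p53 target, was at -0.54, with raw intensities of 251 and 207.

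The other genes of this role differed little. Trp53inp1, a cofactor of p53 in stress and autophagy, was at 0.29, and Ei24, an endoplasmic reticulum protein, at 0.22. Tnfrsf10b, the mouse receptor for the death ligand TRAIL, was at 0.05, with 1 of its 5 probes detected. Triap1, a small mitochondrial protein that opposes apoptosis, was at -0.18. Aen, an apoptosis-enhancing nuclease, Eda2r, a receptor of the TNF family, and Perp, a membrane protein of desmosomes and apoptosis, were at background on both arrays. Perp and Eda2r were represented by 1 probe each.

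By its brightest probe, no gene of DNA repair or nucleotide supply reached 1.5-fold. Ddb2, which recognises ultraviolet damage, had raw intensities of 337 and 398 and a difference of 0.32. Another Ddb2 probe detected on both arrays gave 0.20. A dimmer Ddb2 probe, detected in TERC-/- only, gave 1.15, with raw intensities of 147 and 209. Its size rests on a TERC+/+ value that did not pass detection. Polk, a translesion DNA polymerase, was at 0.22, and Rrm2b, the p53-inducible subunit of ribonucleotide reductase, at 0.08. Ercc5, the nuclease that cuts damaged strands in excision repair, was at -0.42 and its second probe at -0.51.

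**Figure D3:**
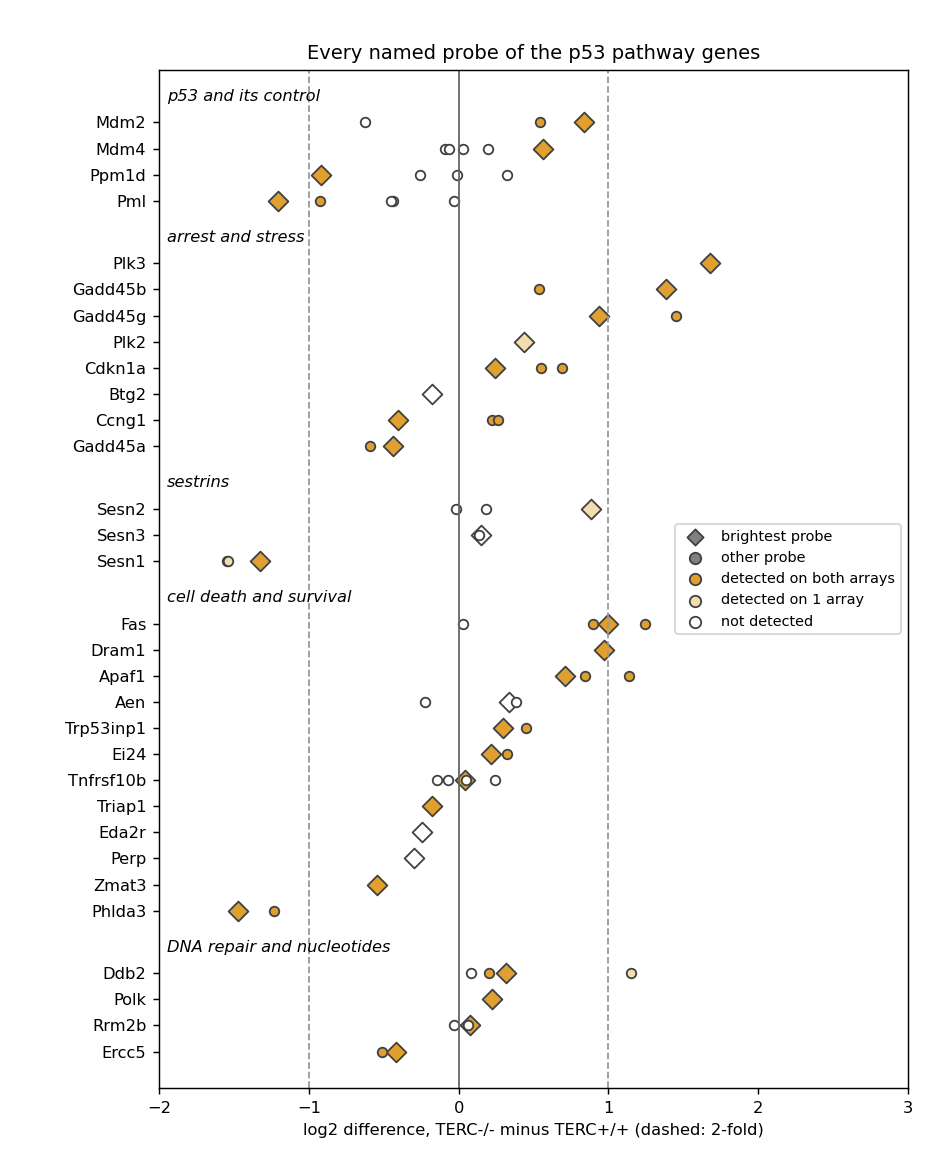
The log2 difference (TERC-/- minus TERC+/+, x axis) of each of the 76 named probes of the p53 pathway genes (rows), with diamonds for the brightest probe of a gene, filled where detected, and dashed lines at 2-fold. Detected probes of a gene lie on the same side of 0 except for Ccng1, and open symbols, which are at background, crowd near 0.

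Probes of the same gene mostly had the same sign. Of 15 members with 2 or more probes detected on both arrays, 14 (93.3%) had all of them on 1 side of 0, against 73.8% of 2870 such genes on the array. Ccng1 was the exception. The range between the probes of a member had a median of 0.28. Probes of 1 gene share the RNA pools and the arrays, so this concerns the measurement and not the animals.

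Members near the size rule decide how many are counted. Inside the rule were Pml at -1.21 and Sesn1 at -1.33 on the lower side and Gadd45b at 1.38 on the higher. Just outside were Fas at 1.99-fold, Dram1 at a log2 difference of 0.97, Gadd45g at 0.94 and Ppm1d at -0.92. At 1.5-fold, 11 of the 26 genes (42.3%) were counted, 7 higher and 4 lower, against 34% of all detected genes. By direction, 1689 of all 9953 detected genes were higher and 1693 lower at 1.5-fold. At 3-fold only Plk3 was counted, on the higher side. Of all 9953 detected genes, 175 were higher and 305 lower at 3-fold.

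**Figure D4:**
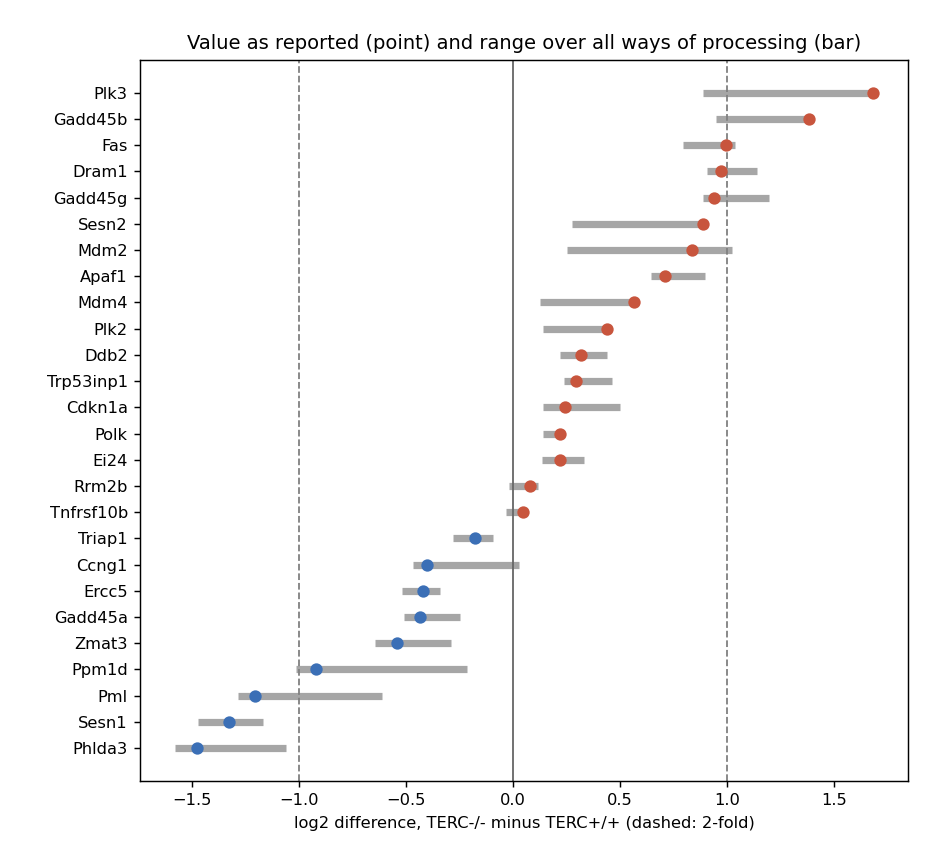
The log2 difference (TERC-/- minus TERC+/+, x axis) of the 26 detected p53 pathway genes (rows), as reported (points) and as the range over 10 ways of processing (bars), with dashed lines at 2-fold. Phlda3 and Sesn1 stay beyond 2-fold throughout, while Plk3, Gadd45b and Pml each have at least 1 setting inside it.

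Other p53 targets outside these genes also differed in both directions. Of 27 detected genes of a list of further targets, 1 was 2-fold or more higher (3.70%) and 3 lower (11.1%). The shares of all detected genes were 6.86% and 8.81%. The median of the list was 0.02, against 0.01 over all detected genes and 0.23 over the p53 genes. Values above 0 were found for 14 of the 27 genes (51.9%), against 50.8% of all detected genes and 65.4% of the p53 genes. Xpc, which recognises damage in excision repair, had raw intensities of 941 and 2906 and was 3.10-fold higher. A second, dimmer Xpc probe gave 1.20, with raw intensities of 140 and 198, the TERC+/+ value being close to background. Traf4, a signalling adaptor, was 4.02-fold lower, with raw intensities of 362 and 173. Its TERC-/- value lay close to background, with a detection p of 0.0064, and its other probes gave -1.71, -1.19 and -0.87. The probes at -1.19 and -0.87 had TERC-/- raw intensities of 137 and 129, at background. Thbs1, thrombospondin 1, was 2.40-fold lower, with raw intensities of 289 and 186. Nupr1, a stress-induced nuclear protein, was 2.21-fold lower, with raw intensities of 2799 and 1436. Of 17 detected regulators, kinases and relatives of p53, none reached 2-fold, against 15.7% of all detected genes, and the median was -0.12. The acetyltransferase gene Kat5 was at 0.92, and the damage kinase gene Chek1, above background in TERC+/+ alone, was at least 1.09-fold lower. Crebbp, above background in TERC-/- alone, was at least 1.41-fold higher. Of 11 detected cell-cycle and mitosis genes, 2 were 2-fold or more lower (18.2%, against 8.81% of all detected genes). They were Ccne1 at -1.29 and Cdc6 at -1.08, and the median of the list was -0.12.

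Marker lists of most cell types of the tibia had larger medians than the p53 genes. In whole tissue, fewer cells of a type and less RNA per cell cannot be told apart. Of all detected genes, 6.86% were 2-fold or more higher and 8.81% lower. Of 16 detected erythroid markers, all 16 were 2-fold or more lower in TERC-/- (median -3.30), and the summed raw intensity of the list was 113047 in TERC+/+ and 22474 in TERC-/-. Of 12 B-lymphocyte markers 10 were lower (summed 11507 and 3595), and Pax5 and Rag2 were at background. Of 11 osteoblast and bone matrix markers 10 were lower (summed 97162 and 19248), with Postn and Dmp1 at background. Of 19 neutrophil markers 10 were higher and none lower (median 1.25, summed 308348 and 516250.0). Skeletal muscle markers had a median of -0.93, with 5 of 15 lower and 1 higher (summed 171456 and 93219). Monocyte and macrophage markers were split, with 3 of 14 higher and 4 lower (summed 55416 and 69389). Their median was -0.48, with 6 values above 0 and 8 below. Of 7 detected T-lymphocyte markers 4 were lower (summed 2683 and 1630). These sums are not normalized, and that of all detected genes was 1.41e+07 in TERC+/+ and 1.56e+07 in TERC-/-. Among the defining markers at background on both arrays were also Cd8a and Cd247 of T lymphocytes and Epb42 of red cells. Which cells gave the p53 transcripts cannot be read from whole tibia, and the part of cell composition in the differences of Sesn1, Phlda3, Pml, Plk3 and Gadd45b was not tested.

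**Figure D5:**
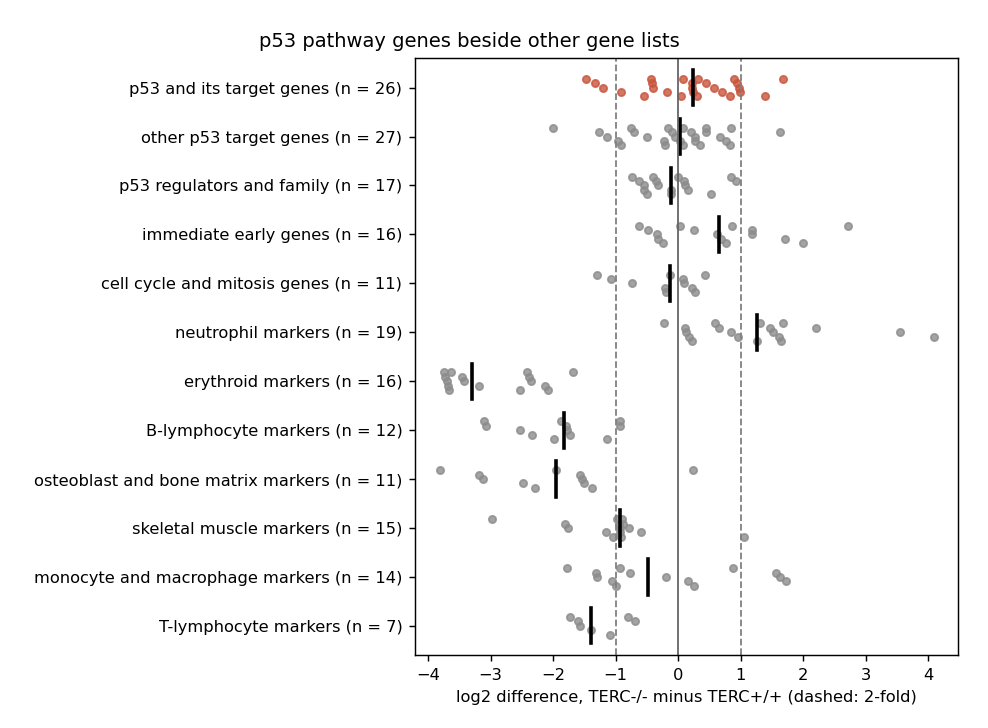
The log2 difference (TERC-/- minus TERC+/+, x axis) of each detected gene of the p53 list (red) and of 11 other lists (grey), 1 list per row, with the median as a black bar and 2-fold as dashed lines. The p53 median is 0.23, while the erythroid median is -3.30 and the neutrophil median 1.25.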

How the data were processed

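Total RNA from tibia, extracted with Trizol, column-purified, treated with DNase and amplified to biotinylated cRNA per the labels' protocols, was hybridised to 1 bead array per genotype. The authors deposited for 45281 probes the non-normalized intensity and its detection p-value, per the file headers; the intensity was not background-subtracted (lowest 88.7). A second deposited table holds processed intensities, linear and with the same quantiles on both arrays, whose making is not given in the sources used here. Samples were grouped by the genotype label.

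Non-normalized intensities were background-corrected with normexp from the detection p-values (nec, limma 3.58.1 in R 4.3.3, offset 16), quantile normalized and log2-transformed. Symbols came from the platform annotation, which gives 1 symbol for 34885 probes, several for 18 and none for 10378. A gene was represented by its brightest probe. Genes with a probe detected at p under 0.01 on at least 1 array were compared. A gene detected on 1 array only is counted by a bound, its level minus the larger, on the other array, of its own level and the lowest detected signal, and list medians take normalized values. The lists of further p53 targets, p53 regulators, immediate early, cell-cycle, neutrophil, erythroid, B-lymphocyte, osteoblast, muscle, monocyte and T-lymphocyte genes, like the members, were chosen with earlier results of these data known. All members are accounted for. Up to 4 genes of each other list are named, by the largest absolute difference among genes detected on both arrays. Chek1, Crebbp and the markers at background were named after their values were seen. The procedure was tested on simulated data, with known folds put only into genes well above background in TERC+/+. Dim genes such as Plk3 and Gadd45b were therefore not covered by that test. Alternatives covered background, normalization, filter, probe choice and size rule. Promoter windows came from RefSeq tables of GRCm38.p6. Figures were drawn with matplotlib 3.10.9.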

Additional observations from a re-analysis of the deposited data

How the results depend on the processing

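With 1 array per genotype, no p-value or standard error exists for any gene, and no replicate could be left out. No paired analysis was possible because each genotype has 1 array. Of the 26 detected members, 23 kept their sign under all 10 ways of processing, counting the one reported. The exceptions were Ccng1, at 0.03 as the mean of all probes, and Tnfrsf10b and Rrm2b, at -0.03 and -0.02 with cyclic loess. The number of members 2-fold or more higher was 0 without background correction and 0 in the deposited processed values, 6 with median scaling, 7 at a threshold of 1.5-fold and 1 at 3-fold. The number 2-fold or more lower was 0 at 3-fold. The counts over all genes also fell without background correction, to 356 higher and 487 lower from 683 and 877, and in the deposited processed values, to 362 and 506. Median scaling gave 787 higher and 836 lower over all genes, the 1.5-fold threshold 1689 and 1693, and the 3-fold threshold 175 and 305. Dim genes are limited by signal over background: Plk3 was at 0.89 and Gadd45b at 0.95 at their lowest, and Pml was at -0.61 as the mean of all probes, 3 of which were at background. The mean of all probes put Gadd45g past 2-fold in place of Gadd45b and Phlda3 and Sesn1 alone on the lower side. The median of the members lay between 0.14 and 0.31.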
